A study of Mus musculus with 6 samples.

Results

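The genes described here are 9 components of the B cell antigen receptor and of the B cell surface, namely Cd79a, Cd79b, Blnk, Blk, Btk, Cd72, Cd22, Fcrla and Ms4a1. They were chosen by name, with earlier results of these data known. Every probe set annotated to one of these symbols alone was taken, which gave 13 of the 22626 probe sets tested. The 9 genes stand among 12393 genes with at least 1 probe set of their own. RNA came from CD71-positive erythroblasts, the nucleated precursors of red cells, sorted from the bone marrow of FVB/N mice. CD71 is the transferrin receptor, which other dividing cells also carry. The 3 mutant samples came from mice carrying an RPS19 transgene that encodes the R62W form of this small-subunit ribosomal protein, and the 3 wild type samples came from mice without it. The sources used here do not give the promoter of the transgene, the age of the mice or whether the samples of a group were separate animals. The p-values below therefore rest on sample-to-sample spread alone, and that spread may be technical. The exception is mutant replicate 3, which differed from mutant replicates 1 and 2 in sex-linked transcripts, as given below. The comparison asks how transcript levels in the mutant sort differ from those in the wild type sort.

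The B cell antigen receptor consists of a membrane immunoglobulin and a signalling pair, CD79A and CD79B, whose cytoplasmic tyrosines are phosphorylated by Src family kinases such as BLK and LYN. The kinase SYK docks there and phosphorylates the adaptor BLNK, which brings together BTK and phospholipase C gamma 2 and so starts calcium release. CD22 and CD72 are surface receptors that recruit phosphatases and damp the signal. In bone marrow these genes are switched on as lymphoid progenitors become pro-B and pre-B cells, and most of them are B lineage markers, while Btk is also expressed in myeloid cells. The B lineage markers among them are not part of the known erythroid programme.

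RefSeq promoter windows (GRCm38.p6) were at hand for 6 of the 9 genes. For 4 of them (Cd72, Cd22, Btk and Fcrla) the window belongs to a start that lies inside the annotated span of the gene, and these are neither shown nor described. The other 2 windows, of a receptor chain and of the adaptor, end at the edge of the annotated gene and are shown because their genes move together over the arrays. Each is the 250 bases before that edge on the strand of the gene, 5′ to 3′. Capitals mark matches, on either strand, to motifs of B lineage regulators: the E box CAGGTG, the octamer ATGCAAAT and the Ets motif AGGAAGT. The EBF1 palindrome core CCCNNGGG, shortened after a longer form had been searched, had no match in either window. Only exact letters were searched, so this does not show that either window lacks an EBF1 site. The sequences lie at chr7:24897247-24897496 on the plus strand (Cd79a) and at chr19:40994222-40994471 on the minus strand (Blnk).
Cd79a: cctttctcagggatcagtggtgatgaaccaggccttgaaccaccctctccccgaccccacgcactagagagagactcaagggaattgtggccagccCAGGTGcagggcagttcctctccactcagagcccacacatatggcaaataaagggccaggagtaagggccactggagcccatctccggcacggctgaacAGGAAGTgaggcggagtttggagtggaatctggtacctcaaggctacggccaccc
Blnk: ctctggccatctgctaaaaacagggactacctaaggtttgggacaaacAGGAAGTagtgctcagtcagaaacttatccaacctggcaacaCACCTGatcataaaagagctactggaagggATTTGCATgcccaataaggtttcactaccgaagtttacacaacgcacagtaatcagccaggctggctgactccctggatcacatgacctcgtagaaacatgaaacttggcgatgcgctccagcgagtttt

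The Cd79a window held an E box 154 to 149 bases upstream of the start and an Ets motif 55 to 49 bases upstream. The Blnk window held an Ets motif, an E box and, 130 to 123 bases upstream, an octamer on the opposite strand. Among the 32851 promoter windows of the same length in the table, 17.2% held the E box, 7.69% the Ets motif, 11.8% the EBF1 palindrome core and 1.60% the octamer. The motifs did not overlap in these windows, and a match is a description of letters, not evidence of a bound site.

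The arrays of the mutant group differed from each other more than those of the wild type group. The SD of the log2 difference between a pair of arrays, over genes, was 0.34 to 0.51 for 2 mutant arrays, 0.14 to 0.18 for 2 wild type arrays and 0.36 to 0.42 for 1 of each. Bacterial transcripts spiked in before labelling read 11.58, 13.43 and 13.47 on mutant arrays 1, 2 and 3, against 8.74 to 8.77 on the wild type arrays. The 3′ minus 5′ signal of actin was 1.58 to 1.88 on mutant arrays and 1.26 to 1.37 on wild type arrays. That of Gapdh was 0.25 to 0.31 on mutant arrays and -0.09 to -0.05 on wild type arrays. Hybridization controls read 10.29 to 10.72 on mutant arrays and 9.29 to 9.41 on wild type arrays. All of these control readings differed between the groups without overlap, and the part of array processing in the differences below was not tested. The tag in the sample description of mutant replicate 1 starts with a different letter from those of mutant replicates 2 and 3, and no source used here says what it means. Mutant replicate 3 was the only array on which the Y-linked Eif2s3y (8.34) read above Xist (5.78), genes looked at after other values were seen. Mutant replicates 1 and 2 read 2.27 and 2.35 for Eif2s3y and 11.38 and 11.93 for Xist. The wild type arrays read 2.23 to 2.45 and 11.96 to 12.07. By these genes mutant replicate 3 read as male and the other arrays as female, so the mutant group mixed sexes. The part of sex in the differences was not tested beyond leaving that array out. The signal for Rps19 differed by -0.02 between the groups, and no source used here says whether its probe set also reads the transgene. Erythroid markers gave high signals on all arrays, with Tfrc, which encodes CD71, at 11.45 to 11.99 on mutant arrays and 12.13 to 12.15 on wild type arrays. The lone probe set named for Hba-a1, an alpha globin gene, read only 2.87 to 3.12 on mutant and 3.06 to 3.27 on wild type arrays.

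Of the 9 genes, 8 had a higher mean signal in mutant than in wild type samples, and Btk had a lower one. The median log2 difference over the 9 genes, each by its brightest probe set, was 1.04, where that over all 12393 genes was -0.0044. It was 0.49 without mutant replicate 2, 1.39 without mutant replicate 1 and 0.98 to 1.23 without any other single array. The excess was uneven within the mutant group. It was largest on mutant array 2, intermediate on array 3 and small on array 1, with gene medians of 2.12, 0.92 and 0.11 above the wild type mean. By limma 0 of the 13 probe sets passed an adjusted p of 0.05 over all probe sets, while 2.33% of all probe sets passed. At an unadjusted p under 0.05 there were 6 of the 13, against 19.1% of all probe sets. In a test without the shared variance estimate 0 of the 13 passed, and 81 of all 22626 probe sets did. There 1 of the 13 had an unadjusted p under 0.05, and the share over all probe sets was not counted. In these bulk samples, more B lineage cells in a sort, more of these transcripts per cell and differing array processing cannot be told apart.

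**Figure D1:**
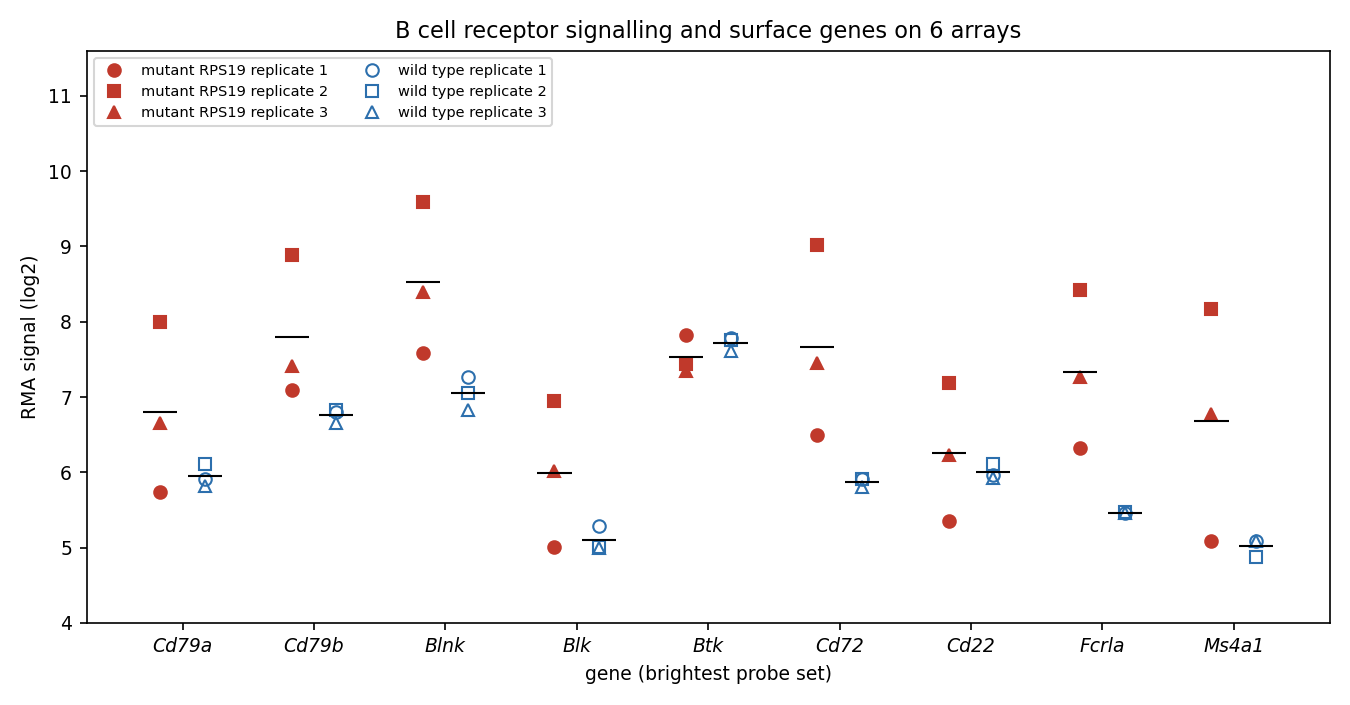
RMA signal (log2, vertical axis) of the 9 genes, each by its brightest probe set, on the 3 mutant RPS19 arrays (filled red, left) and the 3 wild type arrays (open blue, right); marker shape gives the replicate and black bars the group means. Mutant replicate 2 is the highest array for 8 genes, while Btk lies within 7.34 to 7.82 on all arrays.

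The signalling chains of the receptor showed this pattern. Cd79a read 5.74, 8.0 and 6.66 on mutant arrays 1, 2 and 3, against 5.91, 6.11 and 5.81 on wild type arrays 1, 2 and 3. The groups overlapped, because mutant array 1 lay below all wild type arrays while arrays 2 and 3 lay above them. The difference in Cd79a was 0.86 ± 0.49 (log2, SE, 95% confidence interval -0.30 to 2.01, limma adjusted p = 0.41). Its partner Cd79b read 7.09, 8.88 and 7.41 on the mutant arrays, against 6.80, 6.83 and 6.65 on the wild type arrays. All mutant values of Cd79b lay above all wild type values, and the difference was 1.04 ± 0.42 (limma adjusted p = 0.23).

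Blnk, the adaptor that couples SYK to BTK and phospholipase C gamma 2, read 7.59, 9.59 and 8.39 on the mutant arrays, against 7.26, 7.05 and 6.83 on the wild type arrays. The groups did not overlap, and the difference of 1.48 ± 0.45 corresponds to 2.78-fold (95% confidence interval 1.35 to 5.73, limma adjusted p = 0.14). Mutant array 2 alone stood 5.84-fold above the wild type mean of Blnk. Blk, a Src family kinase of B cells, read 5.01, 6.95 and 6.01 on the mutant arrays, against 5.28, 5.00 and 5.00 on the wild type arrays. Mutant array 1 lay within the wild type range of Blk, and the difference was 0.89 ± 0.43 (limma adjusted p = 0.31). Btk, the X-linked kinase whose loss blocks B cell development in human patients, read 7.82, 7.44 and 7.34 on the mutant arrays, against 7.78, 7.75 and 7.61 on the wild type arrays. It was highest on mutant array 1 and lower than all wild type arrays on mutant arrays 2 and 3, unlike the other 8 genes. The difference in Btk was -0.18 ± 0.14 (95% confidence interval -0.51 to 0.15, limma adjusted p = 0.56). Btk is X-linked, and the part of the array on which Eif2s3y read above Xist in its value was not tested beyond leaving that array out, which gave -0.08.

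Among the inhibitory receptors the picture was mixed. Cd72, which recruits the phosphatase SHP-1, read 6.50, 9.03 and 7.46 on the mutant arrays, against 5.91, 5.91 and 5.81 on the wild type arrays. The groups did not overlap, with mutant array 2 at 8.87-fold the wild type mean, and the difference was 1.79 ± 0.55 (3.45-fold, limma adjusted p = 0.14). Cd22, a sialic acid binding receptor with the same action, read 5.35, 7.18 and 6.23 on the mutant arrays, against 5.96, 6.11 and 5.93 on the wild type arrays. Mutant array 1 was the lowest and mutant array 2 the highest of the 6 arrays for Cd22. Its difference was 0.26 ± 0.40 (95% confidence interval -0.68 to 1.19, limma adjusted p = 0.78), with an SD of 0.92 over the mutant arrays, and its sign turned without mutant replicate 2 (-0.21).

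The remaining genes encode an intracellular Fc receptor-like protein and CD20. Fcrla, which binds immunoglobulin inside B cells, read 6.32, 8.42 and 7.27 on the mutant arrays, against 5.45, 5.47 and 5.46 on the wild type arrays. It had the largest difference of the 9 genes, 1.88 ± 0.45 (3.67-fold, 95% confidence interval 1.76 to 7.64, limma adjusted p = 0.080), and its groups did not overlap. Ms4a1, the gene for CD20, read 5.09, 8.16 and 6.77 on the mutant arrays, against 5.09, 4.87 and 5.08 on the wild type arrays. Mutant array 1 lay level with the highest wild type array of Ms4a1, above it only beyond the second decimal, whereas array 2 stood 8.86-fold above the wild type mean. The difference in Ms4a1 was 1.66 ± 0.66 (limma adjusted p = 0.23). Over the 13 probe sets, 6 had all mutant values above all wild type values (brightest probe sets of Cd79b, Blnk, Cd72, Fcrla and Ms4a1 and another of Fcrla), as did 11.4% of all probe sets.

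Where a gene had several probe sets, the sign of the difference was shared but its size was not. The dimmer probe sets of Fcrla read 4.58, 6.77 and 5.57 on the mutant arrays against 4.84, 4.58 and 4.58 on the wild type arrays, and 3.72, 5.12 and 4.05 on the mutant arrays against 3.57, 3.55 and 3.36 on the wild type arrays. Their differences were 0.97 ± 0.48 and 0.81 ± 0.32 (limma adjusted p = 0.33 and 0.23). The dimmer probe set of Ms4a1 read 3.06, 6.45 and 4.80 on the mutant arrays and 3.53, 3.34 and 3.58 on the wild type arrays. This is a difference of 1.29 ± 0.73 (limma adjusted p = 0.39), with wild type values near the lower quartile of the whole table (3.49 to 3.62 over the 6 arrays). The dimmer probe set of Cd22 stayed between 3.51 and 4.27 on all mutant arrays and between 3.59 and 3.95 on wild type arrays, and its difference was 0.09 ± 0.20 (limma adjusted p = 0.85).

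The 9 genes varied far more among mutant arrays than among wild type arrays. For the 8 genes other than Btk the SD over the mutant arrays was 0.92 to 1.54, where the median over all genes was 0.179, and their wild type SD was 0.0070 to 0.215, where the median was 0.088. All 8 genes had mutant array 2 above array 3 and array 3 above array 1, as did 11 of the 13 probe sets and 18.0% of all probe sets. The same order held for 15 of 21 measured early B precursor genes and 9 of 17 B lineage transcription factors. It held for 7 of 23 other mature B cell genes and 3 of 20 other receptor signalling genes. These lists share genes: of the 9 factors, all but Bach2 also stand in the early precursor, mature B cell or plasma cell list. The distance between mutant arrays 2 and 1 was 1.79 (Cd79b) to 3.07 (Ms4a1) over the 8 genes other than Btk. Without mutant replicate 1 the limma fit called 9 of the 13 probe sets higher, against 5.98% of all probe sets called higher. The genes called were Cd79a (1.39, adjusted p = 0.044), Blnk (1.94, adjusted p = 0.013), Blk (1.39, adjusted p = 0.018), Cd72 (2.37, adjusted p = 0.013), Fcrla (2.38, adjusted p = 0.0050) and Ms4a1 (2.45, adjusted p = 0.0084). Cd79b differed by 1.39 (adjusted p = 0.053), Cd22 by 0.71 (adjusted p = 0.11) and Btk by -0.32 (adjusted p = 0.083) in that fit. With mutant replicate 2 or mutant replicate 3 left out, the limma fit called 0 of the 13, although 5 had an unadjusted p under 0.05 each time. Those fits called 203 and 826 of all 22626 probe sets, and their share at an unadjusted p under 0.05 was not counted. A fit with array weights called 10 of the 13 higher, against 5.68% of all probe sets. Leaving out mutant replicate 2 moved the difference to 0.25 for Cd79a, 0.49 for Cd79b, 0.42 for Blk, 0.94 for Blnk, 1.10 for Cd72, 0.92 for Ms4a1 and -0.21 for Cd22. Calls for these genes thus depended on mutant replicate 1, and the size of the differences on mutant replicates 1 and 2.

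**Figure D2:**
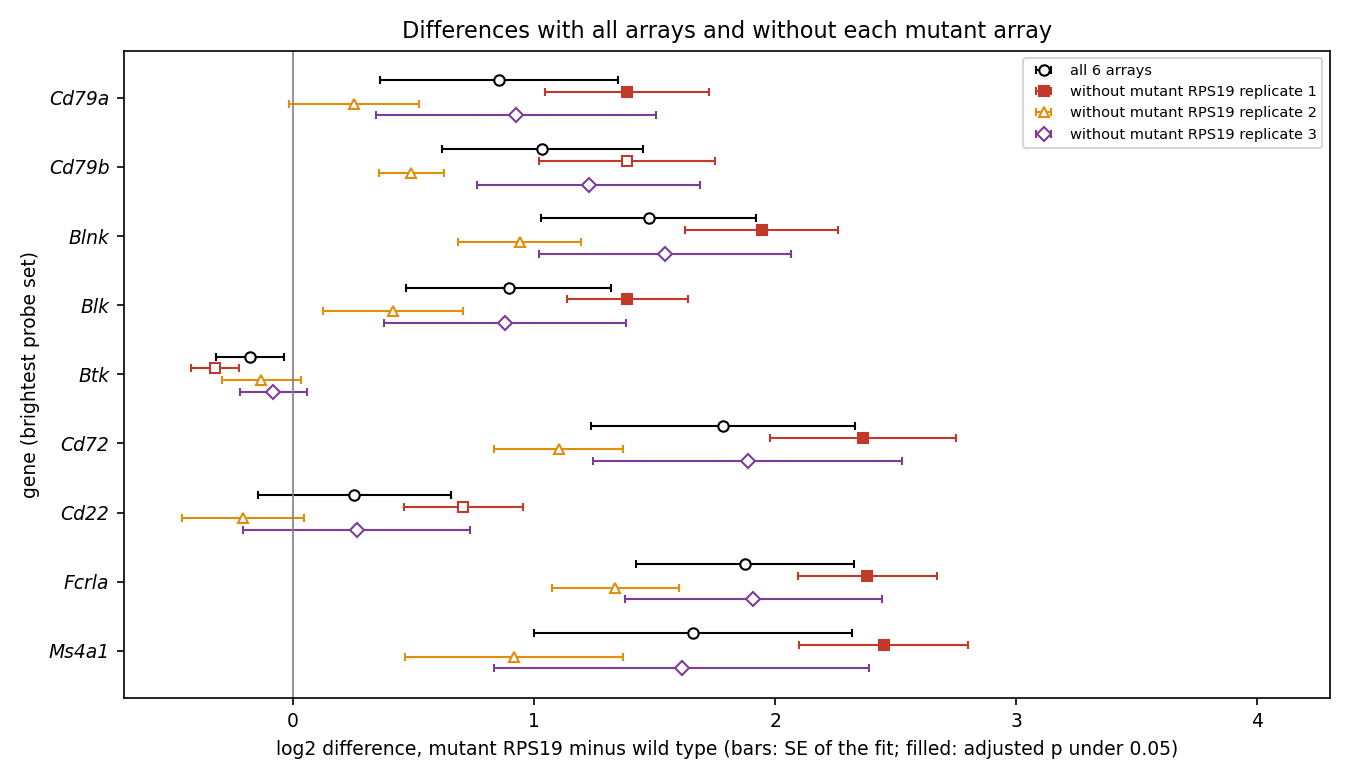
Log2 difference, mutant RPS19 minus wild type (horizontal axis, with the SE of the limma fit), for each of the 9 genes with all 6 arrays and without each mutant array; filled markers have an adjusted p under 0.05 over all probe sets. Filled markers occur only without mutant replicate 1, for 6 genes; Btk is below 0 in all 4 fits, and Cd22 crosses to -0.21 without mutant replicate 2.

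Other components of the receptor pathway did not move as a block. Of 26 other listed signalling genes, 20 were measured and the median difference was 0.11. By limma 0 passed, where 1.52% of the 12393 brightest probe sets passed. An unadjusted p under 0.05 was found for 6, against 19.1% of all probe sets. Prkcb, the protein kinase C that links BTK to NF-kB, read 7.67, 8.60 and 7.36 on the mutant arrays, against 6.38, 6.56 and 6.18 on the wild type arrays. Its groups did not overlap, with a difference of 1.50 ± 0.30 (limma adjusted p = 0.051). The adaptor gene Nck1 differed by -0.38 ± 0.09, the phosphoinositide 3-kinase subunit gene Pik3r1 by -0.30 ± 0.09 and the calcium channel gene Itpr2 by 0.41 ± 0.16 (limma adjusted p = 0.078, 0.12 and 0.22). The receptor-proximal genes picked once their values were known, Syk and Plcg2, differed by 0.65 ± 0.27 and 0.23 ± 0.23. Of 16 listed co-receptors and inhibitors, 13 were measured and 0 passed by limma (1 at an unadjusted p under 0.05), with a median of 0.03. The tetraspanin gene Cd81 differed by -0.41 ± 0.11, the adaptor genes Dok1 and Dok3 by -0.14 ± 0.09 and 0.28 ± 0.18, and the inhibitory Fc receptor gene Fcgr2b by 0.49 ± 0.35 (limma adjusted p of 0.11 or more).

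Genes of early B cell precursors had a smaller median than the 9 genes. Of 24 listed genes 21 were measured, and their median difference was 0.27. By limma 0 passed, where 1.52% of all genes passed, and 4 had an unadjusted p under 0.05, where 19.1% of all probe sets did. By array the median stood at -0.11, 0.78 and 0.13 on mutant arrays 1, 2 and 3, relative to the wild type mean. Vpreb1, a surrogate light chain gene of the pre-B cell receptor, read 7.27, 8.94 and 8.38 on the mutant arrays, against 7.34, 7.26 and 7.20 on the wild type arrays (0.93 ± 0.37, limma adjusted p = 0.23). The adhesion gene Cd2 differed by 0.54 ± 0.11, the lymphoid factor gene Ikzf1 by -0.42 ± 0.10 and Foxo1 by 0.46 ± 0.15 (limma adjusted p = 0.056, 0.082 and 0.17). Without mutant replicate 1, 6 genes of the early precursor list were called higher, where 10.1% of all genes were called in either direction. They were Vpreb1, Vpreb3, Igll1, Il7r, Akap12 and Cd2, of which all but Vpreb1 and Cd2 were chosen after their values were seen.

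Transcription factors of the B lineage were measured for 17 of 19 listed genes, with a median difference of 0.44. Several of them also stand in the other B lineage lists. By limma 1 passed, where 1.52% of all genes passed, and 8 had an unadjusted p under 0.05, where 19.1% of all probe sets did. Without mutant replicate 1, 4 were called higher, where 10.1% of all genes were called in either direction. Mef2d, which acts in many tissues, rose by limma, at 8.49, 8.73 and 8.31 on the mutant arrays against 7.78, 7.92 and 7.83 on the wild type arrays (0.67 ± 0.13, adjusted p = 0.044). That call was lost on leaving out any single wild type array or mutant replicate 2 (adjusted p = 0.097 to 0.22). Without a wild type array the difference in Mef2d stayed at 0.64 to 0.71. Those fits called only 36 to 48 of all probe sets, against 528 with all arrays, so the loss of a call is not particular to Mef2d. Irf4, a regulator of light chain rearrangement and plasma cells, differed by 1.21 ± 0.34 and Pou2f2, which binds the octamer, by -0.45 ± 0.11 (limma adjusted p = 0.12 and 0.080). Bach2, a repressor that marks B cells before the plasma cell stage, read 5.27, 8.01 and 6.47 on the mutant arrays, against 4.76, 4.73 and 4.60 on the wild type arrays (1.89 ± 0.59, limma adjusted p = 0.15). Pax5, chosen after its values were seen, stayed at 4.36 to 4.48 on mutant and 4.32 to 4.66 on wild type arrays, and its difference was -0.04 ± 0.11. Of 25 other listed mature B cell genes 23 were measured, 0 passed by limma (2 at an unadjusted p under 0.05) and the median was 0.16. In that list Pou2af1, the coactivator of octamer factors, differed by 1.19 ± 0.55, Cd83 by 0.26 ± 0.11 and the chemokine receptor gene Cxcr4 by -0.37 ± 0.17 (limma adjusted p = 0.30, 0.25 and 0.28).

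Jchain, which joins secreted immunoglobulin M and A, fell by limma, at 6.46, 7.22 and 4.97 on the mutant arrays against 9.10, 9.04 and 9.17 on the wild type arrays. The difference was -2.88 ± 0.49 (adjusted p = 0.035), and it did not pass without any one of the wild type arrays (adjusted p = 0.176 to 0.179). In those fits, which called few probe sets of any gene, the difference in Jchain was -2.92 to -2.85. Jchain was the only called gene among 10 measured of 11 listed plasma cell genes (1.52% of all genes), of which 3 had an unadjusted p under 0.05 (19.1% of all probe sets) and 5 had a positive difference. The median of that list was -0.02, with Irf4 as above, Prdm1 at -0.27 ± 0.10 and Derl3 at 0.22 ± 0.11. The immunoglobulin genes Ighm and Igk were the 2 measured of 6 listed receptor chains. The brightest probe set of Ighm, the mu heavy chain of the receptor, read 10.38, 11.79 and 10.24 on the mutant arrays, against 10.38, 10.36 and 10.10 on the wild type arrays (0.53 ± 0.38, limma adjusted p = 0.51). Probe sets of Ighm disagreed. Of its 11 probe sets, 5 dimmer ones fell, by 1.02 to 2.09 on the log2 scale (limma adjusted p = 0.00073 to 0.043). Immunoglobulin probe sets can read related segments, so the level of any single gene is uncertain there. Of the 5, 1 stayed past the threshold without each array in turn, and the others kept it in 2 or 3 of the 6 cases. The brightest probe set of Igk differed by -1.30 ± 0.34 (limma adjusted p = 0.099). Its other probe sets differed by 0.07, -0.04 and -0.45 (limma adjusted p of 0.36 or more).

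**Figure D3:**
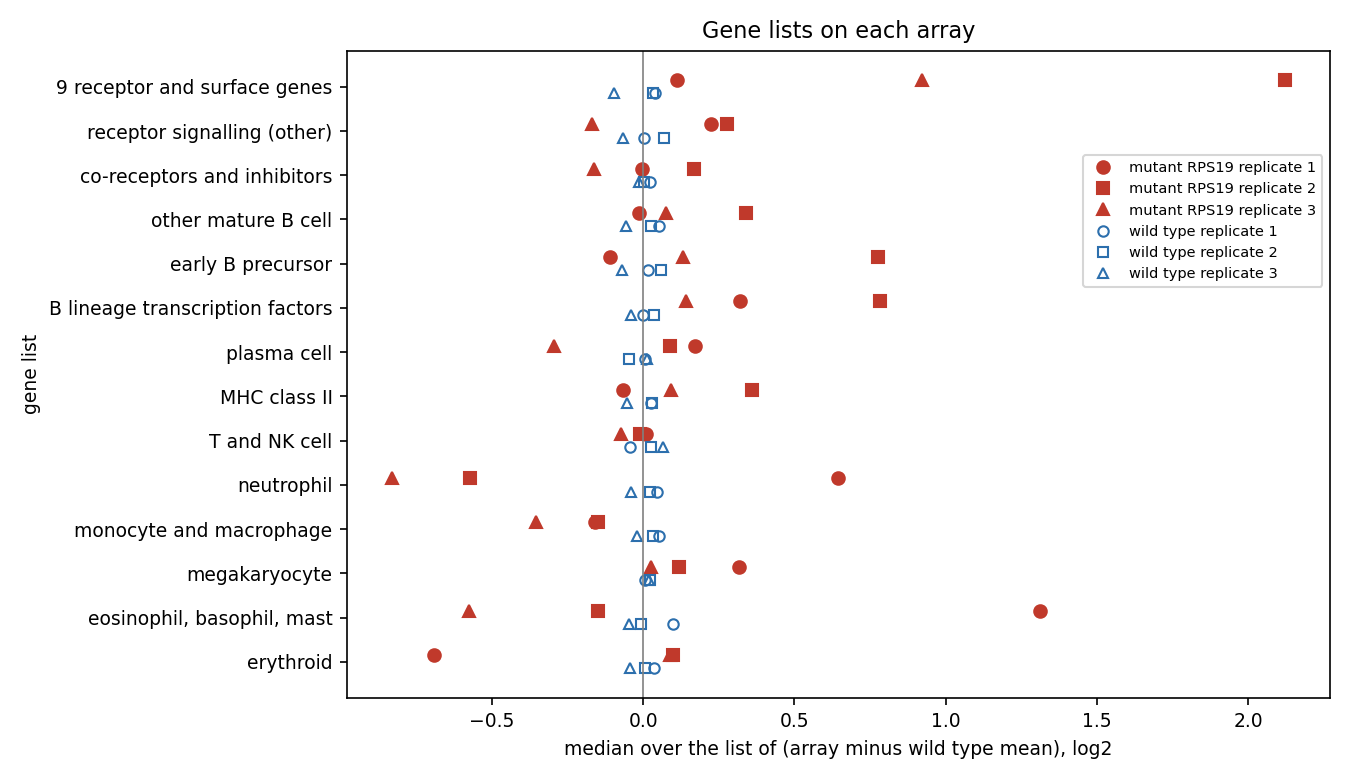
Median over each gene list drawn of the signal on an array minus the wild type mean (log2, horizontal axis), for the 3 mutant RPS19 arrays (filled red, above) and the 3 wild type arrays (open blue, below). The immunoglobulin chain list, with 2 genes measured, is not drawn. Its medians were -1.05, 0.35 and -0.47 on mutant arrays 1, 2 and 3. The 9 genes spread from 0.11 to 2.12 over the mutant arrays, neutrophil markers from -0.83 to 0.64 and erythroid markers from -0.69 to 0.10.

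Markers of other marrow cells moved between the same mutant arrays. Neutrophil markers, 15 measured of 16, had a mean log2 level of 8.26 to 9.76 on mutant arrays and 9.12 to 9.19 on wild type arrays. Their medians above the wild type mean were 0.64, -0.57 and -0.83 on mutant arrays 1, 2 and 3, which is highest on the array where the 9 genes were lowest. Elane, the neutrophil elastase gene, differed by -0.69 ± 0.38, Ltf by -0.54 ± 0.36, Csf3r by -0.55 ± 0.41 and Cxcr2 by -0.36 ± 0.16. By limma 0 neutrophil genes passed (1.52% of all genes) and 0 had an unadjusted p under 0.05 (19.1% of all probe sets). A fit that left out mutant replicate 1 called 9 of them lower, where 10.1% of all genes were called in either direction. Eosinophil, basophil and mast cell markers, 10 measured of 12, averaged 4.45 to 6.27 on mutant and 5.26 to 5.38 on wild type arrays, with a median 1.31 above the wild type mean on mutant array 1. In that list Prg3 differed by 0.58 ± 0.30, Il5ra by -0.13 ± 0.15, Fcer1a by -0.66 ± 0.81 and Prg2 by 0.42 ± 0.54. The part of these shifts in the values of the 9 genes was not tested.

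The counts for the next lists stand beside 1.52% of all genes called and 19.1% of all probe sets at an unadjusted p under 0.05. T and NK cell markers (16 measured of 19) averaged 4.71 to 4.94 on mutant and 4.72 to 4.81 on wild type arrays, and 0 passed by limma (5 at an unadjusted p under 0.05). Their leading genes Cd3d, Lat, Cd3g and Thy1 differed by -0.36, 0.32, -0.28 and 0.37. Monocyte and macrophage markers (13 of 15) averaged 5.70 to 6.20 and 6.19 to 6.27 on mutant and wild type arrays, with 0 past the threshold by limma (2 at an unadjusted p under 0.05) and Fcgr1, Mrc1, Cd68 and Adgre1 at -0.41, -0.36, -0.67 and -0.17. MHC class II genes (8 of 10), which B cells share with macrophages, averaged 6.14 to 6.60 on mutant and 6.17 to 6.26 on wild type arrays. By limma 0 of them passed (0 at an unadjusted p under 0.05), and H2-Ab1, H2-DMa, H2-Aa and H2-DMb2 differed by 0.34, -0.33, 0.32 and 0.24. Megakaryocyte markers (8 of 10) averaged 5.38 to 5.71 on mutant and 5.09 to 5.12 on wild type arrays. Vwf rose among them by 1.48 ± 0.19 (limma adjusted p = 0.015), a call lost without mutant replicate 2 or any single wild type array (adjusted p = 0.053 to 0.12). Without a wild type array its difference was 1.45 to 1.51, in fits that called few probe sets of any gene. Ppbp, Itgb3 and Pf4 differed by 0.89, -0.14 and 0.43.

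Erythroid markers (9 measured of 12) averaged 8.92 to 9.67 on mutant and 9.51 to 9.54 on wild type arrays. Their median above the wild type mean was -0.69, 0.10 and 0.09 on mutant arrays 1, 2 and 3, so among the mutant arrays the lowest for these markers was also the lowest for 8 of the 9 genes. Rhag, Tfrc, Klf1 and Alas2 differed by -0.51 ± 0.21, -0.34 ± 0.15, -0.39 ± 0.22 and 0.35 ± 0.20. By limma 0 erythroid genes passed (1.52% of all genes) and 1 had an unadjusted p under 0.05 (19.1% of all probe sets). The brightest probe set stands for Tfrc here, and another, read at 7.73 to 7.94 on mutant and 8.90 to 8.97 on wild type arrays, fell by 1.10 on the log2 scale (limma adjusted p = 0.0039). The remaining Tfrc probe set read 6.73 to 7.48 on mutant and 7.61 to 7.67 on wild type arrays (-0.62 ± 0.19, limma adjusted p = 0.14). On every Tfrc probe set all mutant arrays thus lay below all wild type arrays.

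Among 1139 other genes whose signal ranged over at least 1 log2 unit, the 6 most like the mean of the 9 genes over the 6 arrays were Wasf1, Myl4, Pafah1b3, Bach2, Akap12 and St6gal1. Their Pearson correlations with that mean were 0.992 to 0.999 over 6 arrays, a description that rests mainly on mutant arrays 2 and 3 and carries no test. Myl4, a myosin light chain gene, read 6.41, 8.71 and 7.44 on the mutant arrays, against 6.35, 6.41 and 6.15 on the wild type arrays. St6gal1, the enzyme that makes the sialic acid linkage which CD22 binds, read 6.09, 7.83 and 6.72 on the mutant arrays, against 5.93, 6.04 and 5.65 on the wild type arrays. The mean of the 9 genes was 6.28, 8.18 and 7.06 on mutant arrays 1, 2 and 3, against 6.16, 6.12 and 6.02 on the wild type arrays. The limma adjusted p of these 6 genes was 0.15 to 0.30.

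**Figure D4:**
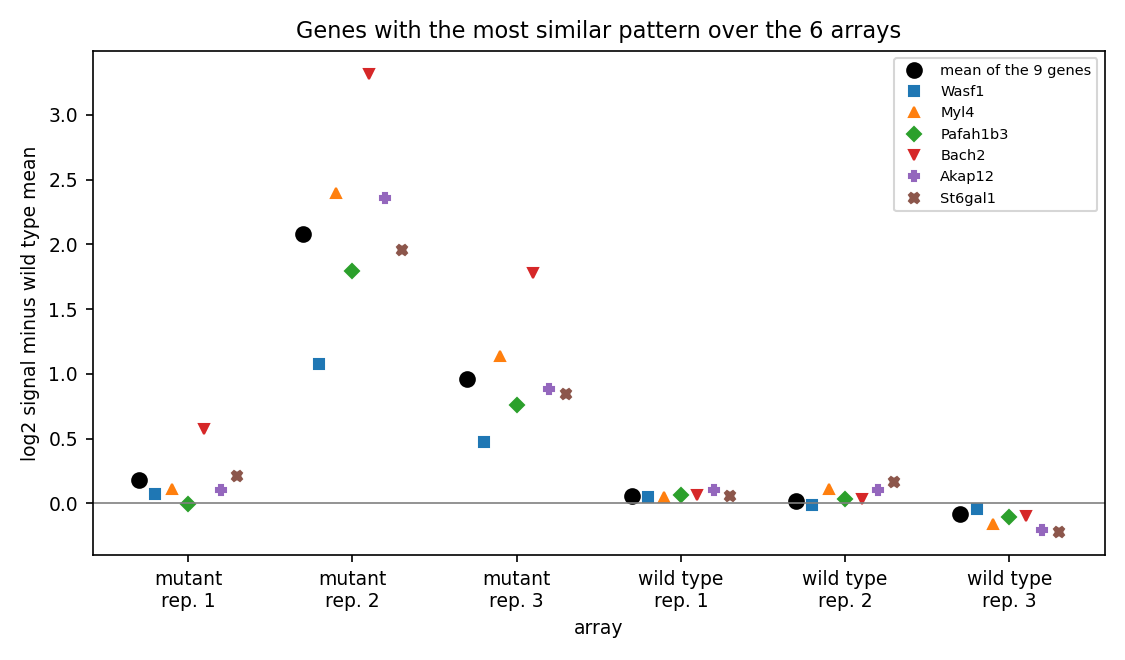
Log2 signal minus the wild type mean (vertical axis) on each mutant RPS19 array and each wild type array for the mean of the 9 genes (black) and the 6 genes with the highest correlation with it. All stand highest on mutant replicate 2, between 1.08 (Wasf1) and 3.32 (Bach2) above the wild type mean.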

How the data were processed

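The deposited values are log2 RMA signals, 1 array per sample, in a table of 22690 probe sets. The submitters' processing notes name GCOS, Affymetrix Expression Console and RMA as what the authors ran. RMA corrects background, quantile normalises and summarises probe sets. The sources used here give no versions. Array medians were 5.35 to 5.41.

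The 64 control probe sets were left out. The platform annotation of 2016 gave 20380 probe sets 1 symbol, 691 several and 1555 none, and only the first lent a name. Entrez identifiers of 20351 matched RefSeq (GRCm38.p6), which altered 0 symbols. Mutant minus wild type was fitted with limma 3.58.1 (R 4.3.3) over all 22626 probe sets, without covariates, with two-sided p-values adjusted by Benjamini-Hochberg and called under 0.05. The brightest probe set stood for a gene. The 9 genes and all lists were chosen with earlier results of these data known. Named genes were the 9, from each list those called, filled to 4 by lowest p, the 6 genes most like the mean of the 9, and Tfrc and Rps19 as checks; other genes are marked in the text as chosen after their values were seen, and Bach2 and St6gal1 are among the 6.

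In simulated data for this comparison (22626 probe sets, 100 changed at each size), limma recovered 66% of changes of 1 log2 unit and 96% of changes of 2 when both groups had 1 common spread, with 3 false calls. With each group's own spread it recovered 77% and 96%, with 44 false calls. The changed probe sets were drawn at random over the table, where the median mutant SD over genes was 0.179. The 8 genes other than Btk had mutant SDs of 0.92 to 1.54, so these rates do not apply to them. Alternatives covered array weights, the variance prior and its removal, normalisation, centring, minimum signals, a replicate block, the probe sets that stand for a gene, the threshold and leaving out each array. List counts without each array were added after seeing the data. The number of arrays limits precision.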

Additional observations from a re-analysis of the deposited data

How the results depend on the processing

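The count of called probe sets in the whole table, 528, moved to 2667 with array weights, 112 with the replicate number as a block, 81 without the shared variance estimate, 41 with 1 probe set per gene, 47 with the mean of a gene's probe sets and 1386 at an adjusted p under 0.10, and ranged from 36 to 2544 on leaving out 1 array. Of the 13 probe sets of the 9 genes, 0 were called by limma (6 at an unadjusted p under 0.05), 10 with array weights, 1 at an adjusted p under 0.10 (Fcrla, 1.88) and 0 to 9 on leaving out 1 array. Array weights called Cd79a (1.38), Cd79b (1.50), Cd72 (2.43), Blnk (1.97), Blk (1.39), Fcrla (2.41) and Ms4a1 (2.47). Leaving out 1 array, differences ranged from 0.25 to 1.39 for Cd79a, 0.49 to 1.39 for Cd79b, 1.10 to 2.37 for Cd72, -0.21 to 0.71 for Cd22, 0.94 to 1.94 for Blnk, 0.42 to 1.39 for Blk, -0.32 to -0.08 for Btk, 1.34 to 2.38 for Fcrla and 0.92 to 2.45 for Ms4a1. The highest value of each came without mutant replicate 1 except for Btk, and the lowest without mutant replicate 2 except for Btk. Cd22 reversed to -0.21 without mutant replicate 2 (adjusted p = 0.73), the 1 reversal among 151 values, of which 14 passed the threshold and 136 kept sign and call. A filter at a mean log2 of 6 left no value for Blk and Ms4a1. Same-numbered samples shared only a number (correlations of deviations 0.051, 0.028 and 0.055), although each sample correlated best with its own number, a hint from the data and not the design. With the replicate block 0 of the 13 probe sets were called by limma (6 at an unadjusted p under 0.05) and 112 of all. The cause of these movements was not tested.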
